A study of Mus musculus with 16 samples.

Results

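PU.1, Spi-B and Spi-C form a subfamily of the ETS transcription factors and are encoded by Spi1, Spib and Spic. These genes were chosen by name: every noncontrol probe annotated to Spi1, Spib or Spic was taken, which gave 3 of the 28631 gene names on the array, with 1 probe and 1 spot each. RNA came from 2 progenitors of the bone marrow (BM) of female C57/Bl6 mice. The earlier one, the macrophage-dendritic cell progenitor (MDP), can still give rise to monocytes, macrophages and dendritic cells. Its descendant, the common dendritic cell progenitor (CDP), forms the plasmacytoid (pDC) and conventional (cDC) types of dendritic cell. Each was sorted from mice bearing orthotopic tumors of PyMT-B6, a line derived from the MMTV-PyMT mammary tumor model on the same background and grown to 1.5 cm in the mammary fat, or from age-matched mice without a tumor. Each of the 4 groups (MDP tumor-free, MDP PyMT, CDP tumor-free, CDP PyMT) held 4 arrays, numbered 2 to 5 in the labels, and each sample pooled 2 mice. The p-values below measure the spread between such pools. The comparison addressed was whether a tumor at a distant site accompanies a change of these factors in dendritic cell progenitors.

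PU.1 is the lineage factor of myeloid cells and dendritic cells: it binds a purine-rich site through its ETS domain, often next to a partner such as IRF8, IRF4 or a C/EBP factor, and opens the genes for the growth factor receptors of these lineages. Spi-B binds closely related sites and is known for its part in pDC and B-cell development. Spi-C is known for red pulp macrophages, which recycle the iron of aged red cells.

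The probe sequences are shown because every value of these genes rests on them. The array's annotation placed the Spib probe at chr7:51781392-51781451 and the Spic probe at chr10:88138053-88138112, both on the minus strand of mm9, and gave no single block for the Spi1 probe, which starts at base 275 of its transcript. The Spib and Spic probes start at bases 2699 and 1167 of theirs. All 60 bases are given for Spi1, bases 16 to 45 for Spib and bases 1 to 30 for Spic, 5′ to 3′. Capitals in the Spib probe mark AATAAA, the letters of the common polyadenylation signal, which 12.6% of the 39429 probes of this length hold on the same strand.
Spi1: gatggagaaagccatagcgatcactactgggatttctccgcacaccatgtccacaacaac
Spib: taaactgtactaAATAAAattatttctcat
Spic: gagccagaatgtcttcagaaaaatgtgggg
The probes of the 3 genes shared runs of at most 7 bases with each other, and none shared more than 14 bases in a row with any of the 39428 other probes. Their GC content was 50% for Spi1, 35% for Spib and 45% for Spic.

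Between 58.8% and 71.5% of probes were well above background, the 75th percentile of signal lay between 3633 and 4655 intensity units, and no probe was saturated. Normalized signal below is log2 of the processed intensity minus that percentile of the same array, so a value of a probe can be compared between arrays but not with that of another probe. Of 39429 probes, 27433 were tested. The labels were checked against markers: Csf1r, the receptor for macrophage colony-stimulating factor, Flt3, the receptor for the dendritic cell growth factor Flt3 ligand, and Cx3cr1 were above background on all arrays of the 4 groups. Kit, the stem cell factor receptor, averaged 1.67 in tumor-free and 1.55 in PyMT MDPs and −0.92 and −2.26 in the corresponding CDPs. Ms4a1, which marks B cells, was above background on no array. Of the 7 B-cell markers, however, 3 to 5 were above it on each tumor-free MDP array. On each MDP PyMT array 2 to 3 were, and on each CDP array 3 to 4. The 16 arrays lay on 4 slides, each with 4 arrays from 3 or 4 of the groups, so values within slides are also given.

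Spib fell in CDPs of tumor-bearing mice and separated CDPs from MDPs in tumor-free mice. The tumor-free CDP arrays read −1.50, −2.39, −1.64 and −0.78 (replicates 2 to 5), from intensities of 1452, 879, 1191 and 2671. The CDP PyMT arrays read −4.08, −5.26, −5.53 and −3.99, from intensities of 258, 120, 86.3 and 245, and only replicates 2 and 5 were well above background. Every CDP PyMT array therefore lay below every tumor-free CDP array. The MDP tumor-free arrays read −5.63, −4.91, −7.51 and −4.86, with replicates 3 and 5 above background. The MDP PyMT arrays read −5.69, −7.29, −5.20 and −6.01, with none above background. In all, Spib was well above background on 8 of 16 arrays and entered the test only through tumor-free CDPs, the group in which it was high. The order of the group means was CDP tumor-free (−1.58 ± 0.66, SD, n = 4), CDP PyMT (−4.71 ± 0.79), MDP tumor-free (−5.73 ± 1.24) and MDP PyMT (−6.05 ± 0.89). Among neighbours in that order, the arrays of CDP tumor-free and CDP PyMT did not overlap, while those of the other neighbours did.

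**Figure D1:**
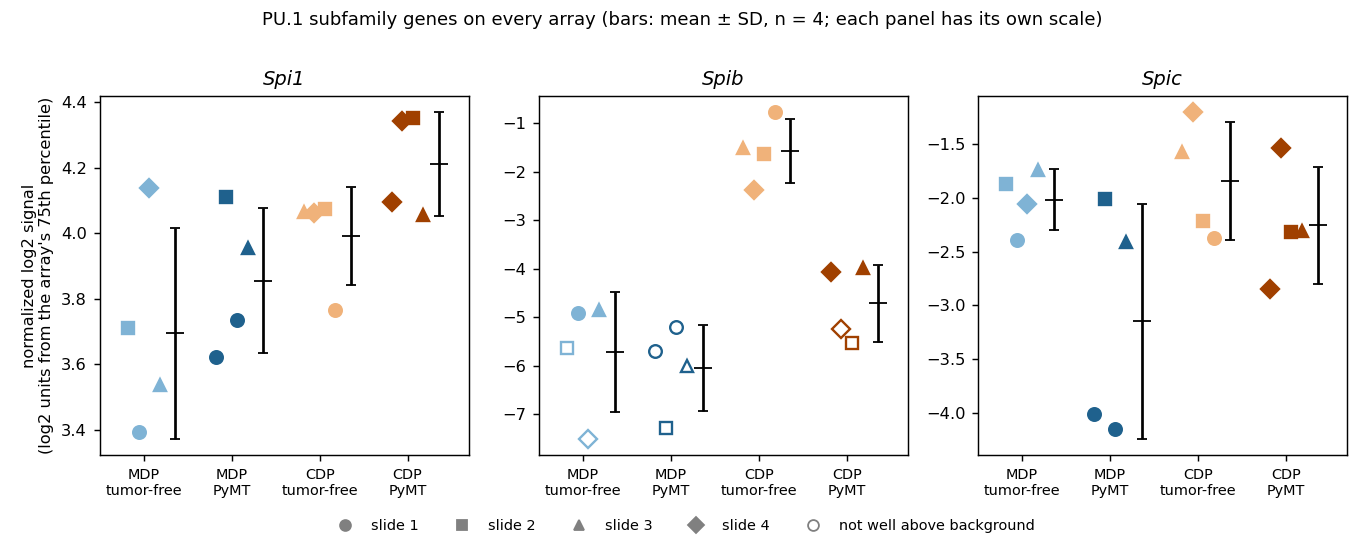
Normalized log2 signal (log2 units from the array's 75th percentile) of Spi1, Spib and Spic on each of the 16 arrays, by group, with the mean and SD of 4 arrays beside the points; the marker shape gives the slide, open markers are arrays on which the probe was not well above background, and each panel has its own scale. The 4 CDP tumor-free arrays of Spib, between −2.39 and −0.78, stand above all 12 other arrays, whereas the groups of Spi1 and Spic overlap.

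In CDPs the tumor change of Spib (PyMT minus tumor-free) was −3.13 log2 units (SE 0.61, 95% interval −4.44 to −1.82, limma adjusted p = 0.021). As measured this is 8.77-fold lower in CDP PyMT, and 8.15-fold with the 2 PyMT arrays at background set no lower than the lowest signal well above background on the same array. The size depended on the background correction: with normexp the change was −1.88 log2 units. The exact two-sided permutation test gave p = 0.0286, the smallest that 4 against 4 arrays allow. Spib entered the test only through tumor-free CDPs, the high group here, so neither p-value is independent of the filter. The shares below are over all tested probes, however they passed the filter. A probe was called when its false discovery rate (FDR) was under 0.05 and its fold above 1.5. By this rule 1.79% of all probes were called in this comparison, and among the 3 genes only Spib was. A change at least this large was seen in 0.204% of probes, and 11.1% of probes had groups that did not overlap. Within the 3 slides that hold both CDP groups, the change was −3.89, −2.48 and −2.28, from 2, 2 and 3 arrays. Since the groups did not overlap, these values had to be below 0, so their sign is no check on the slides. The −3.89 rests on CDP PyMT replicate 4, which was not well above background. The call held in 4 of the 8 fits that left out 1 CDP array and was lost without CDP tumor-free replicate 2 or 5 or CDP PyMT replicate 3 or 4 (changes −3.40 to −2.86, adjusted p from 0.0206 to 0.0748).

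In MDPs the tumor change of Spib was −0.32 (95% interval −1.63 to 0.99, limma adjusted p = 0.818). Since no MDP PyMT array and 2 of the 4 tumor-free MDP arrays were above background, no fold is given. The difference of the tumor changes, CDP minus MDP, was −2.81 (SE 0.86, 95% interval −4.66 to −0.96). Its p was 0.00571 before and 0.749 after adjustment over all probes (limma), so a difference between the progenitors was not called. It subtracts MDP values of which only 2 of 8 were above background, so its size and interval do not rest on measured levels alone. Only 0.0146% of probes were called for this difference, and none was a PU.1 subfamily gene.

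Spib signal was 4.15 log2 units higher in tumor-free CDPs than in tumor-free MDPs (SE 0.61, 95% interval 2.84 to 5.45, limma adjusted p = 0.00103). As measured this is 17.7-fold, and 11.1-fold with the 2 MDP arrays at background held to the same limit. With normexp background correction it was 1.81 log2 units and still called. The groups did not overlap (exact permutation p = 0.0286), as was the case for 13.3% of probes, and 0.149% of probes differed by as much. Tumor-free CDPs were again the high group through which Spib passed the filter, so the same limit holds for these p-values and shares. The rule called 6.07% of all probes here, and Spib was called alone of the 3 genes. The slides, with 2 arrays each, gave 4.13, 3.99, 3.35 and 5.12, where the lack of overlap fixed the sign. The call held in all 8 fits that left out 1 array. In tumor-bearing mice the difference between CDPs and MDPs was 1.34 (95% interval 0.03 to 2.64, limma adjusted p = 0.174). No fold is given here, since only 2 of the 4 CDP PyMT arrays and no MDP PyMT array were above background. The slides that hold both groups gave 1.76 and 2.03, and with slide as a block the difference was 2.22 and was called (limma adjusted p = 0.018). With normexp background correction it was 0.28. These sizes rest largely on signals not above background. The groups overlapped, while 14% of probes had groups that did not. Without the block 7.24% of probes were called, but no PU.1 subfamily gene. The tumor change in CDPs and the tumor-free difference between the progenitors share the tumor-free CDP arrays, so they are not independent.

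**Figure D2:**
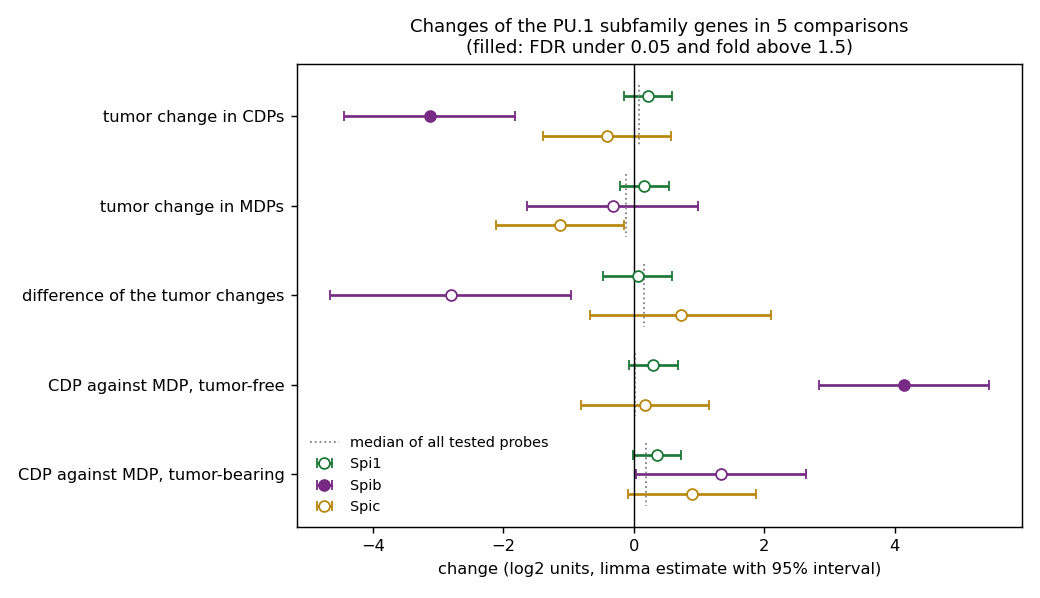
Change of Spi1, Spib and Spic in log2 units (limma estimate with 95% interval) in the 5 comparisons; filled points were called at FDR under 0.05 and fold above 1.5, and the dotted lines mark the median of all tested probes. Spib was called at −3.13 for the tumor change in CDPs and at 4.15 for tumor-free CDPs against MDPs, and no other point was called.

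Cells were sorted in bulk, and fewer Spib-expressing cells and less Spib RNA per cell cannot be told apart. Markers of other stages and cells moved along with Spib in CDPs. Of the progenitor markers, Kit fell by 1.34 (limma adjusted p = 0.00441), and the mean of the 5 measured genes lay between 1.79 and 2.24 on the tumor-free and between 0.89 and 1.53 on the PyMT CDP arrays. Of the mature cDC markers, Cd209a, a lectin of dendritic cells, fell by 3.25 (adjusted p = 0.00261). It was the only 1 called of the 7 tested, of which 5 were lower and 2 higher, and the list median was −0.55. The dimmer probe of Zbtb46 was called at −3.08 (adjusted p = 0.0227), while its brightest was at −0.55 and not called. The list mean ran from −1.03 to −0.46 in tumor-free and from −3.16 to −1.20 in PyMT CDPs. Of the neutrophil markers, Mmp8, a granule collagenase, rose by 1.87 (adjusted p = 0.00362), but 4 of the 7 tested were lower, the list median was −0.25 and the list means of the 2 CDP groups overlapped (−2.62 to −0.34 and −1.36 to −0.75). The B-cell marker means were between −5.15 and −4.37 in tumor-free and between −5.02 and −4.51 in PyMT CDPs. Ms4a1 was at background, but 3 to 4 of the 7 markers were above it on each CDP array. No marker of the erythroid, B-cell, T and NK, mast and basophil or mammary tumor lists was called for the tumor change in CDPs. Of the erythroid markers, 4 of the 5 tested were lower and the median was −1.44, with 3 at an unadjusted p under 0.05 (limma), among them the globin gene Hbb-b1 (−1.82, adjusted p = 0.221). The erythroid list means ran from −4.93 to −2.84 in tumor-free and from −4.73 to −4.05 in PyMT CDPs. The part of these cells in the Spib value was not tested.

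Spi1 did not pass the test in any comparison. Its probe was bright and above background on all 16 arrays. The tumor-free CDP arrays read 4.06, 4.06, 4.07 and 3.77, and the CDP PyMT arrays 4.09, 4.34, 4.35 and 4.05. The MDP tumor-free arrays read 3.71, 3.39, 4.14 and 3.54, and the MDP PyMT arrays 3.62, 4.11, 3.73 and 3.96. The whole range over 16 arrays, 3.39 to 4.35, was thus about 1 log2 unit. The group means were 4.21 ± 0.16 (CDP PyMT), 3.99 ± 0.15 (CDP tumor-free), 3.85 ± 0.22 (MDP PyMT) and 3.69 ± 0.32 (MDP tumor-free; SD, n = 4), and all neighbours in that order overlapped.

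The tumor change of Spi1 was 0.22 in CDPs (SE 0.17, 95% interval −0.16 to 0.59, limma adjusted p = 0.683) and 0.16 in MDPs (95% interval −0.21 to 0.53, adjusted p = 0.699). The intervals thus leave room for a rise of 0.59 or a fall of 0.16 in CDPs. In CDPs the direction depended on the scaling: with quantile normalization, which sets all arrays to one distribution, the change was −0.06. The CDP minus MDP difference of the tumor changes was 0.06 (95% interval −0.47 to 0.59, adjusted p = 0.931). CDPs exceeded MDPs by 0.30 in tumor-free (95% interval −0.08 to 0.67, adjusted p = 0.465) and by 0.36 in tumor-bearing mice (95% interval −0.02 to 0.73, adjusted p = 0.194), neither called. Slides accounted for 55.0% and groups for 48.9% of the variance of Spi1 when each was taken alone. The 4 arrays of slide 1 read 3.39 to 3.77 and those of slide 4 read 4.06 to 4.34. Within slides the tumor change was 0.28, −0.01 and 0.16 in CDPs and 0.28, 0.40 and 0.42 in MDPs.

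Spic varied more between arrays than Spi1 and passed no test. The tumor-free CDP arrays read −1.57, −1.20, −2.22 and −2.37, and the CDP PyMT arrays −2.85, −1.53, −2.32 and −2.31. The MDP tumor-free arrays read −1.87, −2.39, −2.06 and −1.74, and the MDP PyMT arrays −4.02, −2.01, −4.15 and −2.41. Spic was above background on all 16 arrays, and the low values of MDP PyMT came from replicates 2 and 4. Both of these arrays lay on slide 1 and had the lowest shares of probes above background of the 16 arrays, 60.6% and 58.8%. The part of that in their Spic values was not tested. The group means, CDP tumor-free −1.84 ± 0.55, MDP tumor-free −2.01 ± 0.28, CDP PyMT −2.25 ± 0.54 and MDP PyMT −3.15 ± 1.10 (SD, n = 4), overlapped between neighbours.

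In MDPs the tumor change of Spic was −1.13 (95% interval −2.11 to −0.15), with p = 0.0266 before and 0.446 after adjustment in limma and p = 0.114 in the exact permutation test. This comparison called 0.062% of all probes and left 5.22% with groups that did not overlap, and the MDP groups overlapped for each of the 3 genes. The slides that hold both MDP groups gave −1.69, −0.14 and −0.67. In CDPs the tumor change was −0.41 (SE 0.46, 95% interval −1.39 to 0.57, adjusted p = 0.787), and −0.10, −0.74 and −0.99 within slides. The difference of the tumor changes was 0.72 (95% interval −0.67 to 2.11, adjusted p = 0.749). CDPs differed from MDPs by 0.17 in tumor-free (adjusted p = 0.9997) and by 0.89 in tumor-bearing mice (adjusted p = 0.205). At an unadjusted p under 0.05, 1 of the 3 genes passed in each of the 5 comparisons. Of all probes, 13.7% passed at that level for the tumor change in CDPs, 10.4% for that in MDPs, 4.05% for their difference, 17.1% between the progenitors of tumor-free and 27.8% between those of tumor-bearing mice.

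**Figure D3:**
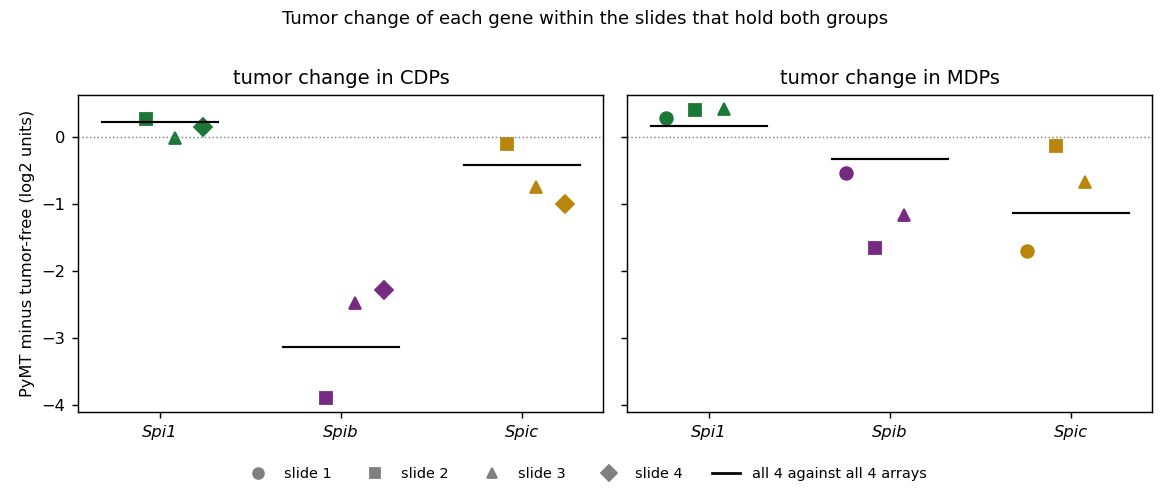
Tumor change (PyMT minus tumor-free, log2 units) of each gene within each slide that holds both groups, for CDPs and MDPs; the black line is the change over all 4 against all 4 arrays. Spib in CDPs read −3.89, −2.48 and −2.28 on the 3 slides, from 2, 2 and 3 arrays, whereas Spi1 in CDPs ran from −0.01 to 0.28. The sign for Spib follows from the lack of overlap between the CDP groups.

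The genes around these factors were read from 6 lists: partners and antagonists of PU.1, its target genes, genes of the B-cell receptor pathway driven by PU.1 and Spi-B, pDC genes, red pulp macrophage and iron recycling genes, and the other ETS factors. Each gene is counted by its brightest probe. For the tumor change in CDPs, dimmer probes of Tcf4, Siglech, Grap2 and Csf2rb were called where the brightest was not. List medians are read beside the median of all probes, which was 0.08 for the tumor change in CDPs and −0.11 for that in MDPs. With quantile normalization these medians were 0.03 and 0.00. In MDPs limma called no gene of the 6 lists for the tumor change. At an unadjusted p under 0.05, 3 partners, 3 targets, 3 pDC genes, 3 ETS factors, 2 red pulp genes and 1 B-cell receptor gene passed there, beside 10.4% of all probes. For the difference of the tumor changes between the progenitors no list gene was called either.

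Of the pDC genes, 13 of 13 were tested. For the tumor change in CDPs 3 were called lower and none higher, beside 1.79% of all probes called, and the list median was −0.44. Runx2, a factor needed for pDC migration, went from 0.01 ± 0.25 to −2.95 ± 0.97 (SD, n = 4), which is −2.96 (limma SE 0.37, adjusted p = 0.00154), and its call held in all 8 fits without 1 array. Its within-slide changes were −3.30, −1.72 and −3.45. The other Runx2 probe changed by −0.32 (adjusted p = 0.840), so the probes of this gene disagreed. Bcl11a, a factor required for pDC and lymphoid development, fell by 0.85 (adjusted p = 0.0338), and Bst2, a surface protein of pDCs, fell by 0.69 (adjusted p = 0.038). Their calls held in 3 and 2 of the 8 fits. The other 10 genes did not pass the test, among them Tcf4, the central pDC regulator, at −0.77 (adjusted p = 0.0543) and Siglech, a pDC surface lectin, at 0.38 (adjusted p = 0.802). The probes of both genes disagreed, since the other Tcf4 probe was called at −2.79 (adjusted p = 0.0285) and the other Siglech probe at −2.93 (adjusted p = 0.0259). In MDPs the median was −0.15. For the CDP minus MDP difference of the tumor changes, 5 pDC genes passed at an unadjusted p under 0.05, beside 4.05% of all probes. In tumor-free mice all 13 were higher in CDPs than in MDPs, with 4 called: Irf7, the interferon regulator (2.80, adjusted p = 0.0131), Runx2 (1.82, adjusted p = 0.00904), Bcl11a (1.11, adjusted p = 0.00229) and Bst2 (0.80, adjusted p = 0.00602). The median there was 0.76 beside 0.02 for all probes, of which 6.07% were called. In tumor-bearing mice Irf7 (3.66) and Tlr9 (1.09), a receptor for unmethylated DNA, were called, beside 7.24% of all probes. Only 2 of the 4 MDP PyMT arrays of Irf7 were above background, and the Tlr9 call held in 3 of 8 fits without 1 array. The median was 0.65 beside 0.19 for all probes.

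Of the PU.1 partners and antagonists, all 16 were tested. Gfi1, a repressor that favors granulocytes and opposes PU.1, rose by 1.73 in CDPs of tumor-bearing mice (SE 0.39, limma adjusted p = 0.0383). Its call held in 2 of the 8 fits without 1 array, and the slides gave 2.75, 0.39 and 2.41. No other of the 16 partners was called, where 1.79% of all probes were, and the list median was −0.01. Irf8, the partner of PU.1 in monocyte and cDC1 development, changed by −0.02 in CDPs (adjusted p = 0.979) and by −0.13 in MDPs (adjusted p = 0.813). Cebpa, a granulocyte and monocyte factor, changed by 0.01 and 0.05. Irf4, a partner in cDC2 and B cells, changed by −0.66 in CDPs (adjusted p = 0.574) and by −1.61 in MDPs (adjusted p = 0.255), where no PyMT array was above background. Gata2, an antagonist of PU.1 in early progenitors, changed by −0.17 and −0.43.

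Between the progenitors of tumor-free mice 2 of the 16 partners were called higher and 4 lower in CDPs, beside 6.07% of all probes called. Irf4 (3.10, limma adjusted p = 0.000622) and Klf4, a monocyte factor (1.98, adjusted p = 0.000749), were higher in CDPs, while Gfi1 (−4.42, adjusted p = 1.52e-05), Gata2 (−2.82, adjusted p = 0.0363) and Tal1, a stem cell and erythroid factor (−1.28, adjusted p = 0.00244), were among the lower ones. The Gata2 call held in 1 of 8 fits without 1 array, and Irf4 was above background on only 2 of the 4 tumor-free MDP arrays. In tumor-bearing mice 3 were called higher and 3 lower, beside 7.24% of all probes called. Irf4 was at least 4.42-fold brighter in CDP PyMT (adjusted p = 6.17e-05), Klf4 was higher by 1.204, and Gfi1 was lower by a change of −2.91. Irf8 (0.22 and 0.33) and Cebpa (−0.28 and −0.33) were called in neither of these comparisons.

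Of the 24 PU.1 target genes, 22 were tested. In CDPs of tumor-bearing mice 2 were called higher, beside 1.79% of all probes called. Of the 22 changes 18 were above 0, and the median was 0.35, which with quantile normalization was 0.13 with 1 call. Elane, the neutrophil elastase of granule-forming progenitors, rose by 1.12 (limma adjusted p = 0.0227), and Fcgr3, an Fc receptor, rose by 0.87 (adjusted p = 0.02). Their calls held in 3 and 4 of the 8 fits without 1 array. A dimmer probe of Csf2rb, the shared chain of the GM-CSF receptor, was called at 0.70 (adjusted p = 0.0487). In MDPs the median was 0.00. Between the progenitors of tumor-free mice 4 of the 22 targets were called higher and 2 lower in CDPs, beside 6.07% of all probes called. Lyz2, lysozyme (2.29), and Cybb, a subunit of the phagocyte oxidase (1.02), were the most raised, and Elane (−1.85) the most lowered. In tumor-bearing mice 6 were called higher and 1 lower in CDPs, beside 7.24% of all probes called. Lyz2 (2.75) and Fcgr1, the high-affinity Fc receptor (2.48), led, with Elane at −0.81.

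**Figure D4:**
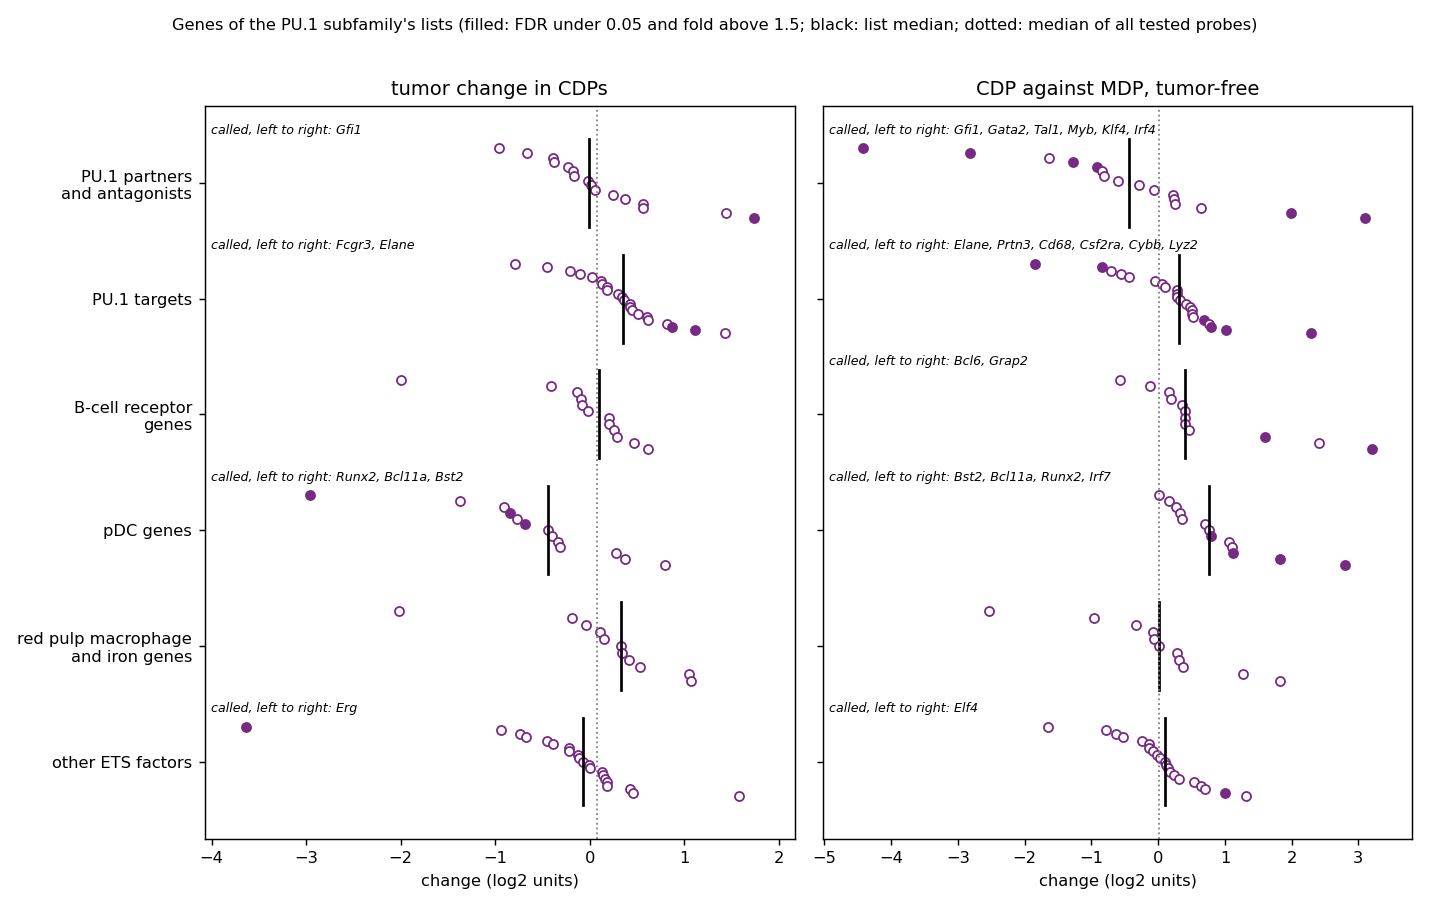
Change in log2 units of each tested gene of the 6 lists for the tumor change in CDPs and for tumor-free CDPs against MDPs; filled points were called and are named above each list, black lines are list medians and dotted lines the median of all tested probes. In the left panel Runx2 (−2.96) and Erg (−3.64) lie far from the rest of their lists, and in the right panel all 13 pDC genes lie above 0.

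Of the 23 other ETS factors with a probe, 21 were tested and 1 was called for the tumor change in CDPs. Erg, a factor of stem cells and early progenitors, went from −1.69 ± 0.87 in tumor-free to −5.33 ± 1.59 in PyMT CDPs (SD, n = 4), of which 2 of the 4 PyMT arrays were above background. The change was −3.64 (SE 0.63, limma adjusted p = 0.0114), its call held in all 8 fits without 1 array, and the slides gave −3.56, −2.41 and −3.51. In MDPs Erg changed by −0.22 (adjusted p = 0.882). The list median was −0.07 in CDPs and −0.09 in MDPs. Between the progenitors, Elf4, which restrains lymphocyte proliferation, was higher in tumor-free CDPs by 0.997 (adjusted p = 0.00989), and Erg was lower in PyMT CDPs by a change of −5.08 (adjusted p = 0.000227). Erg and Spib were thus the ETS factors called for the tumor change in CDPs, 2 of the 24 tested including the PU.1 subfamily, beside 1.79% of all probes.

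Lists tied to Spi-B in B cells and to Spi-C in macrophages held no call for a tumor change in either progenitor (limma, brightest probes). At an unadjusted p under 0.05 in CDPs, 2 of 12 and 1 of 11 tested genes passed, beside 13.7% of all probes. Of the 14 B-cell receptor genes, 12 were tested, with medians of 0.09 in CDPs and −0.17 in MDPs. Grap2, an adaptor protein, was at −1.997 in CDPs (limma adjusted p = 0.255), and its dimmer probe was called at −1.82 (adjusted p = 0.0262). In tumor-free mice Grap2 (3.20, adjusted p = 0.0243) and Bcl6, a germinal center repressor also used by dendritic cells (1.60, adjusted p = 1.63e-05), were higher in CDPs, and Bcl6 was also higher in tumor-bearing mice (1.28, adjusted p = 9.98e-05). Of the 15 red pulp macrophage and iron recycling genes, 11 were tested, and none was called by its brightest probe in any of the 5 comparisons. The dimmer probe of Hmox1, a heme-degrading enzyme, was called between tumor-bearing CDPs and MDPs (1.84, adjusted p = 0.00743). Their median was 0.33 in CDPs and −0.61 in MDPs, where all 11 changes were below 0, as was the change of Spic there. With quantile normalization that median was −0.58, with 9 of 11 below 0. In the main fit every tested mature cDC (7), erythroid (5), progenitor (5) and mammary tumor marker (4) was also below 0 in MDPs. All 3 tested mast and basophil markers were above 0. So were 4 of 7 neutrophil, 1 of 4 B-cell and 1 of 4 T and NK markers. MDP PyMT replicates 2 and 4 had the lowest shares of probes above background (60.6% and 58.8%). Their part in these changes was not tested.

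The genes most like each factor over the 16 arrays were taken from 17281 genes by Pearson's r of normalized signal, as a description, since the arrays share slides and groups. For Spib they were Arhgef10 (r = 0.93, and 0.93 after subtracting each slide's mean), above background on 6 of 16 arrays where Spib was on 8, AI447881 (0.93 and 0.93), Rab43 (0.93 and 0.93), Prkcd (0.93 and 0.94) and Kctd12 (0.92 and 0.95). For Spi1 they were Cdc42 (0.93 and 0.85), Hist2h3b (0.93 and 0.92), Hist1h3d (0.92 and 0.85), Hist1h1b (0.92 and 0.87) and Vim (0.92 and 0.89). For Spic they were Defa-rs10 (0.95 and 0.95), Olfr632 (0.94 and 0.92), Cass4 (0.94 and 0.88), Psg23 (0.94 and 0.93) and Slc51b (0.93 and 0.86). Each of these genes near Spic was, like Spic, lowest in MDP PyMT. Defa-rs10 averaged −2.28 there and −1.25 in tumor-free MDPs, and Olfr632 −4.16 and −3.19. Whether the signal of the Spic probe comes from Spic RNA alone was not tested. Among the 3 genes themselves r was −0.02 for Spi1 with Spib, 0.36 for Spi1 with Spic and 0.21 for Spib with Spic, and 0.15, −0.21 and 0.39 after subtracting slide means.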

How the data were processed

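Cy5-labeled RNA of 16 samples was hybridised to one-color Agilent arrays. The intensity values are the deposited processed signals of the spot tables, which the authors' scanner software (Feature Extraction 11.5.1.1) had background-subtracted and detrended within each array. The authors also deposited a table of log2 values for 26793 probes. Its normalization is not stated, its column medians were 10.2 to 10.3, and each column lay nearest to its own array (r of at least 0.9998 with quantile-normalized signals). It served as an alternative. Each array held 44397 spots, 1377 of them controls. Outlier spots (182 to 289 per array) were dropped, log2 signals were taken relative to the array's 75th percentile, and a probe was tested when 3 or 4 arrays of some group had it well above background.

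Groups followed the labels. The limma model (version 3.58.1, R 4.3.3) had 4 group means over 16 arrays with Benjamini-Hochberg adjustment over 27433 probes. The number of arrays limits the precision. Data were simulated for the tumor change in CDPs over the 27301 tested probes with a value on all arrays. There the rule called 25 of 100 probes given a true change of 1 log2 unit, and 72 of 100 given 2. The noise was normal and independent between arrays, without slide effects or differences between the progenitors. No other probes were moved, so these shares may not carry over to the real arrays. List genes were named when called (up to 5 per list and comparison), with Irf8, Irf4, Cebpa, Gata2 and Gfi1 always named. Some list genes are not reported here. Tcf4, Siglech, Hbb-b1 and the dimmer probes of Grap2, Csf2rb, Hmox1 and Zbtb46 were named after their values were seen. The genes and lists were chosen with earlier results of these data known. Alternatives were other background corrections, normalizations, filters, blocks and fits leaving out arrays. A list's settings and fits without 1 array were added after seeing the data. Exon and UTR positions were not analysed here.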

Additional observations from a re-analysis of the deposited data

Results flagged for a closer look

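Spi1 in tumor-free CDPs had 1 array far from the others: replicate 5 read 3.77, while the other replicates read 4.06 to 4.07. The gap to the nearest array was 0.961 of the group's range, above Dixon's 95% critical value for 4 samples. Of 12 groups examined (3 genes in 4 groups) this was the only one, and chance marks about 1 group in 20. Replicate 5 was the only CDP array on slide 1, where the MDP arrays also read low (3.39 to 3.73). The part of the slide in this value was not tested.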

How the results depend on the processing

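Of 154 planned comparisons of the 3 genes with another setting, 143 kept direction and side of the threshold, and of 144 that left out 1 array, 135 did. The fall of Spib in CDPs ran from −3.24 to −1.88 (normexp background correction) over the other settings, its excess in tumor-free CDPs over MDPs from 1.81 (normexp) to 4.15, called in each, and that in tumor-bearing mice from 0.28 (normexp) to 2.22. The fall in CDPs stayed at −3.13 but was not called when only the 2 CDP groups entered the fit (adjusted p = 0.0511) or under the methods' t-test after Benjamini-Hochberg adjustment (0.105). Leaving out 1 array gave −3.40 to −2.86. Spib was left out by the filter on all 16 arrays. With slide as a block, Spib in tumor-bearing CDPs against MDPs became 2.22 and was called (adjusted p = 0.018). Quantile normalization and the deposited table turned the Spi1 tumor change in CDPs (−0.064 and −0.063), the Spi1 difference of the tumor changes (−0.21 and −0.20, and −0.18 with the slide block) and the Spib tumor change in MDPs (0.011 and 0.010). Normexp turned Spic in tumor-free CDPs against MDPs (−0.011). None of these was called, and the cause was not tested. Leaving out 1 array gave −0.089 to 0.16 for the Spi1 difference, −0.92 to 0.091 for the Spib change in MDPs and −0.039 to 0.35 for Spic in tumor-free CDPs against MDPs. Within single slides, values moved by more than the replicate SD. For Spi1 the change was −0.0095 in CDPs on slide 3, 0.40 and 0.42 in MDPs, and −0.43 for the difference, and CDP against MDP was 0.53 and −0.075 without and 0.099 with a tumor. For Spib the MDP change was −1.66, the difference −1.32 and tumor-free CDP against MDP 5.12. For Spic the MDP change was −0.14, the difference −0.064 and tumor-bearing CDP against MDP −0.31 and 0.10.

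Pairing by replicate number was not seen: over 16 same-numbered pairs r ran from −0.63 to 0.48, and 4 were nearest to their own number. The check cannot exclude pairing, since deviations also followed the slide. Their median r between groups was 0.26 on the same slide and −0.07 on other slides. With the replicate block Spib in CDPs was −3.13 (adjusted p = 0.0282), no call of the 3 genes changed, and 371 probes were called in CDPs in place of 491 and 10 in MDPs in place of 17. Counts of called probes moved by over 1.5 times as follows. The 491 in CDPs became 1251 (slide block), 55 (only the groups compared) and 3 and 2072 (t-test, adjusted and unadjusted). They were 153, 169, 181, 201, 202, 312 and 325 without CDP PyMT replicate 4 or 3, CDP tumor-free replicate 3, 2, 5 or 4, or CDP PyMT replicate 2. The 17 in MDPs became 45 (slide block), 6 (normexp), 7 (deposited table), 11 (quantile, and the filter on all 16 arrays), 10 (no filter), 5 (only the groups compared) and 1 and 1016 (t-test), and 1 (without MDP PyMT replicate 4) to 43 (without MDP PyMT replicate 5) leaving out 1 array. The 4 for the difference became 0 (normexp, quantile, deposited table), 1 (filter on all 16 arrays) and 2 (slide block, 1 probe per gene), and 7 without MDP tumor-free replicate 3, CDP tumor-free replicate 4 or 5, or CDP PyMT replicate 5. The 1665 in tumor-free CDPs against MDPs became 2923 (slide block) and 2995 (unadjusted t-test). The 1986 in tumor-bearing mice became 793 (only the groups compared) and 587 and 4122 (t-test), and 1126 (without CDP PyMT replicate 2) to 3276 (without MDP PyMT replicate 5) leaving out 1 array.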
